A study of Mus musculus with 4 samples.

Results

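This account covers 10 mouse genes of the piRNA pathway: Piwil1, Piwil2, Ddx4, Mael, Tdrd1, Tdrd5, Tdrd6, Tdrd9, Mov10l1 and Pld6. They were taken by gene symbol, not by any measured value, and each matched 1 of the 57010 Ensembl identifiers in the count table. Testis RNA was sequenced in 2 libraries from the BUS group, male ICR mice given a single intraperitoneal injection of busulfan at 30 mg/kg and later corn oil with DMSO, and in 2 libraries from the BUS+ULA group, given the same injection and, from 2 weeks afterwards, ursolic acid by gavage at 50 mg/kg daily for 4 weeks. Mice were 8 weeks old when bought. Busulfan is an alkylating drug that depletes germ cells. Every library analysed here comes from a mouse that received it, so the 2 groups compare ursolic acid with its vehicle after busulfan. The study states 2 biological replicates and 1 technical replicate, without saying which libraries these are. The labels do not tie the 2 libraries per group to separate mice, and p-values measure only the spread between these libraries.

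piRNAs are small RNAs that germ cells load onto PIWI proteins. In the mouse they silence transposons in fetal germ cells, and a second, very abundant class appears in pachytene spermatocytes and lasts into round spermatids. Long precursor RNAs are unwound by helicases, cut at the surface of mitochondria and trimmed, while Tudor domain proteins bind methylated arginines of the PIWI proteins and hold the machinery together in germ granules, first between mitochondria and later in the chromatoid body of the spermatid. Loss of these genes in male mice generally blocks spermatogenesis.

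The promoters of 8 members were matched by symbol in RefSeq (GRCm38.p6), and Piwil2 and Tdrd6 were not matched. Upstream sequences are shown for the helicases Ddx4 and Tdrd9, for Mael, the most abundant member per length, for Piwil1, the PIWI protein of pachytene piRNAs, and for Pld6, the member with the lowest ratio of BUS+ULA to BUS. Each run gives the 150 bases before the annotated start site, 5′ to 3′ on the strand of the gene, and capitals mark matches to the MYB motifs AACNG and AACTGCC on either strand, where the longer one can overlap the shorter. Pld6 has a second start site in the table, from 59787223 to 59787372 for the same window, which is not shown and holds an AACNG match as well. The last capital of Mael is the first base of a match that runs past the start site. The window of Mov10l1, the other helicase, is not shown and holds no match, as its matches begin 238 and 217 bases before the start. Those of Tdrd1 and Tdrd5 are not shown either, and the Tdrd1 window from 56826059 to 56826208 holds no match.
Ddx4 (chr13:112652311-112652460, minus strand): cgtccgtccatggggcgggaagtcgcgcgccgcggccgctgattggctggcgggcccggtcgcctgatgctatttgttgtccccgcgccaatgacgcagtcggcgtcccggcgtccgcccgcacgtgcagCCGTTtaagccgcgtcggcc
Mael (chr1:166238745-166238894, minus strand): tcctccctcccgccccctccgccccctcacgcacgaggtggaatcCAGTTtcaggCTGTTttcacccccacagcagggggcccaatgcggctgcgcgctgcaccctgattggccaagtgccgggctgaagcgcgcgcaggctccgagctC
Tdrd9 (chr12:111971409-111971558, plus strand): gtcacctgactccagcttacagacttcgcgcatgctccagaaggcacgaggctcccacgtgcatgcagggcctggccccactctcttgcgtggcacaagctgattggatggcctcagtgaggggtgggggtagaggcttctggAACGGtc
Piwil1 (chr5:128736096-128736245, plus strand): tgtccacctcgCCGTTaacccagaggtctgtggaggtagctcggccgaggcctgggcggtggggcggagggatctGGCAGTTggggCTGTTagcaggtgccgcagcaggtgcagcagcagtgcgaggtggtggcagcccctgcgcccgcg
Pld6 (chr11:59787658-59787807, minus strand): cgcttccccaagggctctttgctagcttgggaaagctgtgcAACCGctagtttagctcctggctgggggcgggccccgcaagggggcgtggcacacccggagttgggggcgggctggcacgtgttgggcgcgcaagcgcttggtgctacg
MYB motifs were searched because Mybl1 (A-MYB) is the transcription factor known in mouse to switch on piRNA genes at pachytene. Over windows from 250 bases before to 50 after the start, AACNG was present for all 8 matched members. It was present for 82.4% of all 27025 genes and in 80.3% of all 32851 promoters, so its presence does not set the members apart. The longer AACTGCC was present for 1 member, Piwil1, on the opposite strand, its first base lying 75 bases before the start. Over all genes it was present for 4.76%, and over all promoters in 4.12%. The RefSeq start of Piwil1 used here lies inside the longer GENCODE gene model. A match describes letters and not a bound site.

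The libraries held 15078828 to 18216380 counts. The share of counts on protein-coding genes was 96.9% and 96.3% in BUS replicates 1 and 2. It was 87.4% and 76.9% in BUS+ULA replicates 1 and 2, where a single identifier without a name in the tables used here, ENSMUSG00000119584, took 7.88% and 18.5%. Levels are therefore given as CPM, counts scaled to a common total after TMM normalization, which sets the libraries on a common scale by trimming genes with extreme ratios. Markers of germ cells and of Sertoli and Leydig cells were all detected, as a testis should show, while the 5 epididymis markers together stayed at or below 5.39 CPM. BUS replicate 1 had the most somatic signal, with 5764 CPM summed over 11 Sertoli cell markers against 3007 in BUS replicate 2.

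Most of the 10 members stood at moderately higher levels in the BUS+ULA libraries, none past the test. Together they summed to 2322 and 3251 CPM in BUS replicates 1 and 2 and to 3981 and 4176 CPM in BUS+ULA replicates 1 and 2. Both BUS+ULA libraries lay above both BUS libraries for 8 members, and no member showed the opposite, beside 37.9% of the 23023 genes tested that lay above and 37.2% that lay below. At an adjusted p under 0.05 from edgeR's quasi-likelihood test, 0 of 10 members were higher and 0 lower, where 11.8% of all genes tested were higher and 15.3% lower, or 6.94% and 20.5% of the protein-coding genes. At an unadjusted p under 0.05 the count was 1 higher (Tdrd6) and 0 lower, beside 20.1% and 23.3% of all genes, and DESeq2 and limma-voom each passed 1 member, again Tdrd6. The median log2 fold change of the members was 0.45, beside 0.02 over all genes tested and -0.22 over the protein-coding genes. The BUS libraries were apart by much of the distance between the groups. Without BUS replicate 1 the members' median was 0.24, and without BUS replicate 2 it was 0.69. In bulk tissue, fewer cells of a type and less RNA per cell cannot be told apart.

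**Figure D1:**
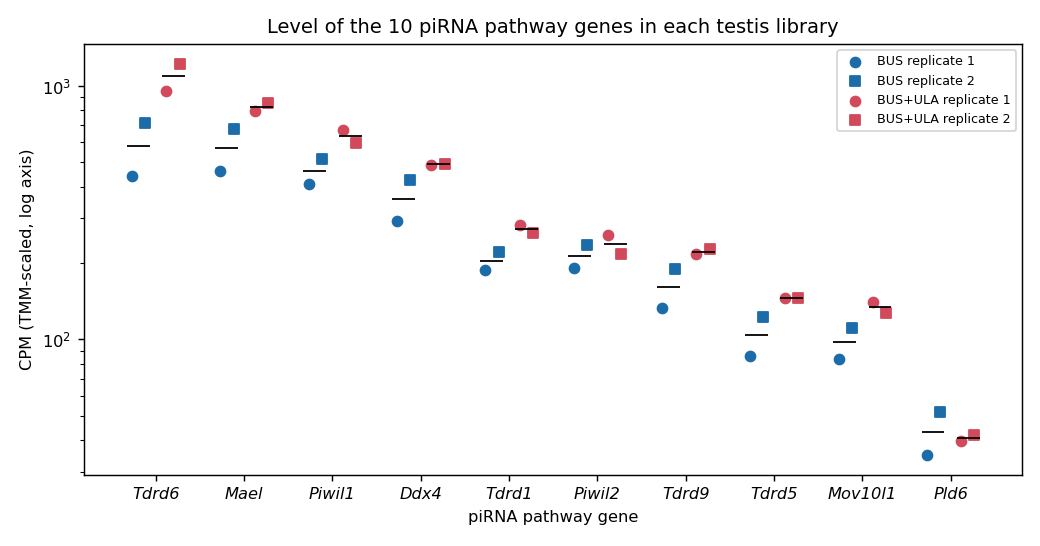
CPM of each of the 10 genes in each library on a log axis, with circles for replicate 1, squares for replicate 2 and a black line at the mean of each group. BUS+ULA points lie above both BUS points for 8 genes and overlap them for Piwil2 and Pld6; heights of different genes are not corrected for transcript length.

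The genes of the 2 PIWI proteins differed in how clearly the groups separated. Piwil1 encodes MIWI, the PIWI protein that carries pachytene piRNAs in spermatocytes and round spermatids. Located on chromosome 5 of GRCm38 from 128702524 to 128755474, it had 409 and 513 CPM with BUS and 670 and 592 CPM with BUS+ULA. The groups did not overlap, yet the gap between the nearest libraries (513 and 592) was smaller than that between the BUS libraries. Fitted by edgeR, the log2 difference between groups was 0.45 (standard error, SE, 0.25, adjusted p = 0.188), with a 95% interval from -0.11 to 1.01. Piwil2 encodes MILI, which acts from fetal germ cells through spermatogonia to round spermatids. It lies on chromosome 14 from 70372477 to 70429383 and had 191 and 235 CPM with BUS and 258 and 217 CPM with BUS+ULA, so the groups overlapped. Its log2 fold change was 0.16 (SE 0.23, adjusted p = 0.624), with an interval from -0.37 to 0.68.

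The 3 helicases gave close values in the reported fit. They did not with the correction for GC content and length, where Ddx4 gave 0.38, Mov10l1 0.86 and Tdrd9 1.01 (adjusted p = 0.0333 from edgeR). All genes had a median of 0.22 in that fit, and its p-values took more degrees of freedom than those of the reported fit. Ddx4 encodes the DEAD-box protein MVH, a germ granule helicase often used as a germ cell marker. The gene is on chromosome 13 from 112598333 to 112652475 and had 292 and 424 CPM with BUS and 486 and 492 CPM with BUS+ULA. BUS replicate 1 was the low library, and the BUS+ULA libraries were nearly equal. The log2 fold change was 0.45 (SE 0.26, adjusted p = 0.208). Mov10l1, the helicase that binds piRNA precursors at the start of their processing, lies on chromosome 15 from 88982909 to 89055152. It had 83.5 and 111 CPM with BUS and 140 and 127 CPM with BUS+ULA, a log2 fold change of 0.46 (SE 0.23, adjusted p = 0.161). Tdrd9 combines a helicase and a Tudor domain and is known for its part with MIWI2 in silencing transposons of fetal germ cells, and is on chromosome 12 from 111971559 to 112068854. Its level went from 133 and 190 CPM with BUS to 216 and 227 CPM with BUS+ULA, a log2 fold change of 0.45 (SE 0.25, adjusted p = 0.182). For all 3 helicases the groups did not overlap and the interval included 0.

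Among the Tudor domain genes, Tdrd6 stood apart from Tdrd1 and Tdrd5. Tdrd6 encodes the large scaffold that the chromatoid body of round spermatids needs for its structure. It lies on chromosome 17 from 43615335 to 43630299, with 7062 exon bases, the most of the members. It had 442 CPM in BUS replicate 1, 711 in BUS replicate 2, 952 in BUS+ULA replicate 1 and 1221 in BUS+ULA replicate 2. The libraries of each group were apart by a similar amount (SD 190 CPM in both), and the groups did not overlap. From means of 576 ± 190 to 1086 ± 190 CPM (SD, n = 2 libraries each), the log2 fold change was 0.91 (SE 0.30, adjusted p = 0.0524 from edgeR, unadjusted p = 0.0146), or 1.88-fold. This is close to the threshold, and Tdrd6 passed it in 8 of 16 alternatives, among them DESeq2 (0.0159), limma-voom (0.0434), RLE scaling (0.0496) and the GC and length correction (1.57, adjusted p = 0.00704). Over all 16 the value ranged from 0.59 to 1.58. In the fits with the GC and length correction, with no filter and with a library left out, p-values followed a normal distribution. The reported fit used 2 residual and 7.18 median prior degrees of freedom, which give a larger p for the same value and SE. A pass in those fits therefore need not mean a larger effect. Leaving out 1 library at a time gave 0.59 without BUS replicate 1 (adjusted p = 0.176), 1.28 without BUS replicate 2 (0.000809), 1.09 without BUS+ULA replicate 1 (0.117) and 0.73 without BUS+ULA replicate 2 (0.426).

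Tdrd1, which binds MILI in the granules between mitochondria, lies on chromosome 19 from 56826209 to 56870012. It had 188 and 221 CPM with BUS and 283 and 262 CPM with BUS+ULA, a log2 fold change of 0.42 (SE 0.22, adjusted p = 0.181). Tdrd5, needed in mouse for the making of pachytene piRNAs and for germ granule structure, lies on chromosome 1 from 156255296 to 156303664. It had 86.2 and 122 CPM with BUS and 145 CPM in each BUS+ULA library, a log2 fold change of 0.48 (SE 0.24, adjusted p = 0.156). Exons of Tdrd5 share 176 bases, or 2.54% of its exon length, with the antisense gene 4930518J20Rik, and without a stated strand setting reads there cannot be assigned to one of them. Neither gene's groups overlapped. No other member shared exon bases with another gene of GENCODE M21.

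Mael was the most abundant member per length, and Pld6 was the one at the low end of the fold changes. Mael encodes Maelstrom, a germ granule protein that mouse germ cells need to silence transposons and complete meiosis. The gene is on chromosome 1 from 166201201 to 166238747 and had 462 and 672 CPM with BUS and 791 and 852 CPM with BUS+ULA. The log2 fold change was 0.53 (SE 0.27, adjusted p = 0.158), with groups that did not overlap. Pld6 encodes MitoPLD, the mouse counterpart of Zucchini of flies, which sits on the outer membrane of mitochondria and is needed for cutting precursors. It lies on chromosome 11 from 59783897 to 59787645 and was the only member with a negative value. It had 35.0 and 51.6 CPM with BUS and 39.8 and 42.0 CPM with BUS+ULA, and both BUS+ULA libraries lay between the BUS libraries. The log2 fold change was -0.08 (SE 0.26, adjusted p = 0.822), with an interval from -0.66 to 0.50. It changed sign, for example with upper-quartile scaling (0.19), with protein-coding genes alone (0.10), with a correction for GC content and length (0.41) and without BUS replicate 2 (0.21), passing under none of the alternatives. Counting error alone, which leaves out the spread between mice and preparations, was 1.07% to 4.34% of the lowest count of a member, which was 530 for Pld6, and the highest count was 15728 for Tdrd6.

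**Figure D2:**
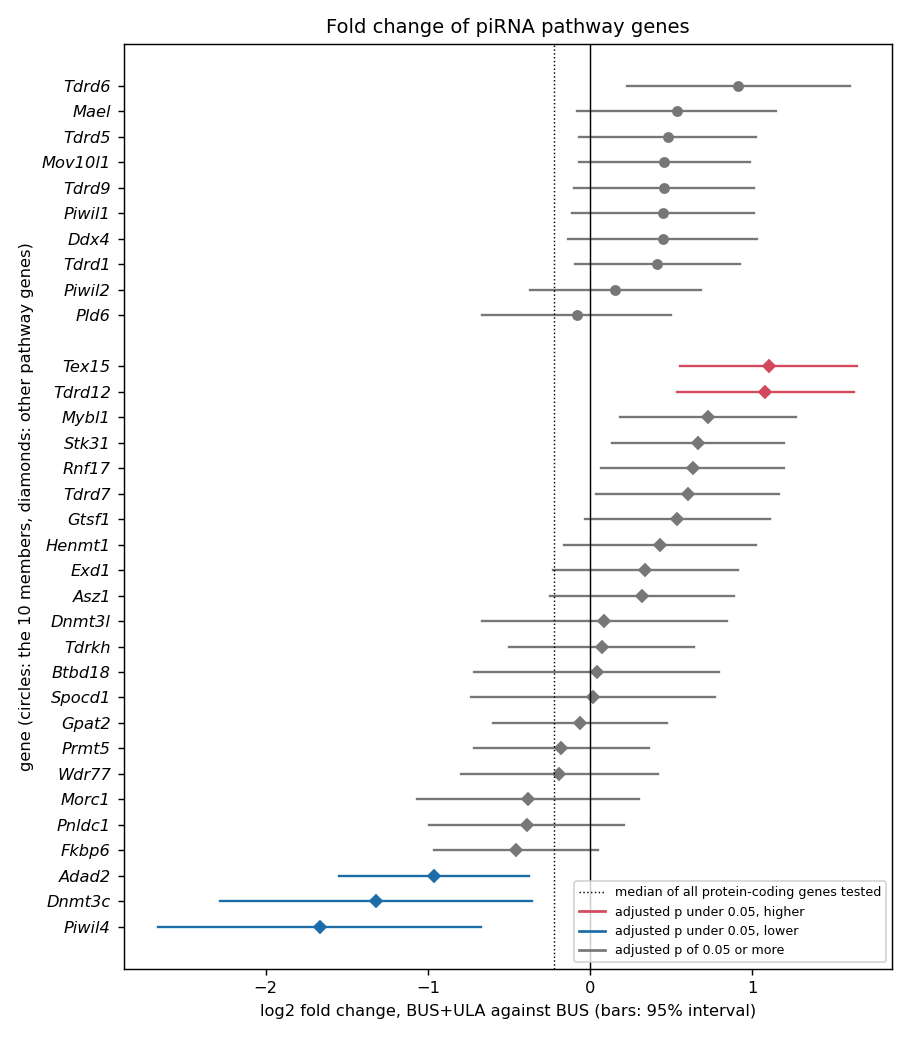
Fitted log2 fold change, BUS+ULA against BUS, of the 10 members (circles) and 23 other piRNA pathway genes (diamonds) with 95% intervals, coloured by whether the adjusted p was under 0.05. Of the members, 9 lie above 0 and 0 pass; of the other genes, Tex15 and Tdrd12 pass as higher and Adad2, Dnmt3c and Piwil4 as lower.

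Levels of different genes were compared only per kilobase of exon. On this scale Mael was highest in each library, from 267 CPM per kilobase in BUS replicate 1 to 491 in BUS+ULA replicate 2, and it made up 39.9% to 42.0% of the sum over the members. Ddx4 took 13.9% to 14.9% and Piwil1 11.6% to 14.1%, so the shares of these neighbours overlapped over the libraries. Tdrd6 took 9.38% and 10.7% of the sum with BUS and 11.99% and 14.8% with BUS+ULA, ranking 4 in the first 3 libraries and 2 in BUS+ULA replicate 2. Piwil2 took 5.42% and 4.73% with BUS and 4.34% and 3.52% with BUS+ULA. The share of Pld6 was 2.98% and 3.12% with BUS and 2.02% and 2.04% with BUS+ULA. The lowest member per length was Tdrd5, at 12.4 to 20.9 CPM per kilobase. Exon lengths are those of GENCODE M21 and may differ from the gene models that were counted.

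A ratio between 2 genes within a library does not depend on the library scaling, although it does depend on a correction by GC content and length, so each member was also set against Ddx4 in the same library. Uncorrected, the ratios of Tdrd5 and Tdrd9 to Ddx4 were close in all 4 libraries. For Tdrd9 the log2 ratio was -1.14 and -1.15 with BUS and -1.17 and -1.12 with BUS+ULA, and for Tdrd5 it was -1.76 and -1.79 against -1.74 and -1.76. Mael stayed within 0.66 to 0.79. Piwil1 gave 0.48 and 0.28 with BUS and 0.46 and 0.27 with BUS+ULA. Its ratio was thus high in replicate 1 and low in replicate 2 of both groups, and Mov10l1, Tdrd1 and Piwil2 showed the same order.

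Tdrd6 moved up against Ddx4, from 0.60 and 0.75 with BUS to 0.97 and 1.31 with BUS+ULA, a difference of means of 0.47. Piwil2 and Pld6 moved down. Piwil2 went from -0.61 and -0.85 to -0.91 and -1.17, a difference of -0.31, and Pld6 from -3.05 and -3.02 to -3.59 and -3.53, a difference of -0.53. For Pld6 the replicates of each group nearly coincided, and the uncorrected gap between groups was wider than the spread between replicates. These patterns rest on the uncorrected counts: Ddx4 has the lowest GC content of the members, and with the GC and length correction its log2 fold change of 0.38 stood beside 0.41 for Pld6, 0.57 for Piwil2, 0.92 for Tdrd5 and 1.01 for Tdrd9, so that Pld6 and Piwil2 no longer had lower fold changes than Ddx4, and those of Tdrd5 and Tdrd9 no longer matched it. For Tdrd6 and Piwil2 the groups did not overlap, but the nearest libraries of the 2 groups were no farther apart than replicates of one group were. With 2 libraries against 2, the smallest p that a two-sided exact permutation test allows is 0.333, and these ratios are given as a description.

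**Figure D3:**
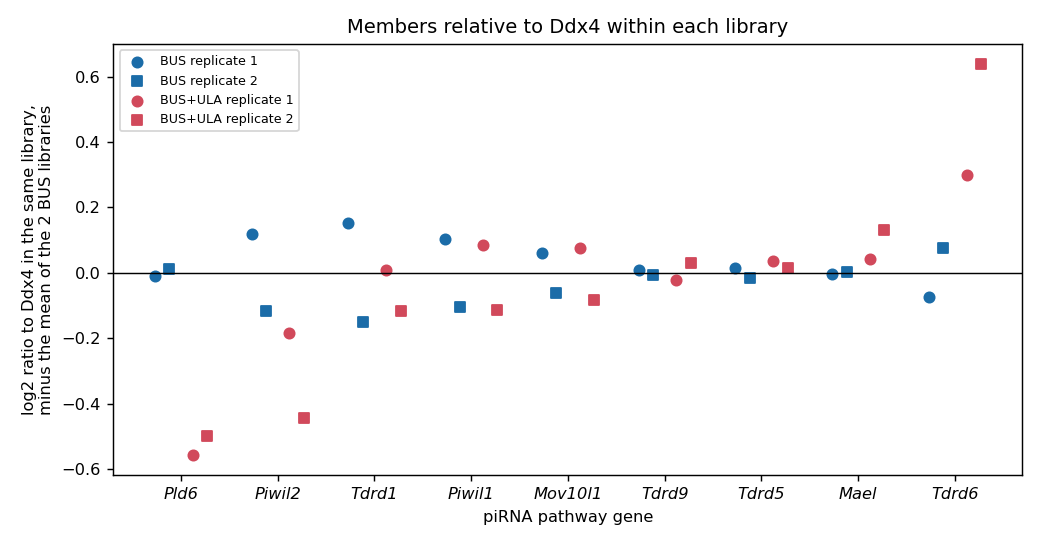
Log2 ratio of each member to Ddx4 in the same library, minus the mean of the BUS libraries; circles are replicate 1 and squares replicate 2 of the BUS (blue) and BUS+ULA (red) groups. Tdrd5 and Tdrd9 stay near 0, Tdrd6 lies above and Pld6 and Piwil2 lie below in both BUS+ULA libraries.

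Other genes of the pathway were spread more widely than the members. Of 24 genes listed, 23 had a row and passed the filter on low counts, and Tdrd15 was not analysed here. Of these, 2 were higher, 3 lower and 18 did not pass at an adjusted p under 0.05 from edgeR, beside 11.8% higher and 15.3% lower over all genes tested, with a median log2 fold change of 0.07 and a range from -1.67 to 1.10. Without adjustment, p was under 0.05 for 6 on the higher side and 3 on the lower, beside 20.1% and 23.3% of all genes tested. Tex15, which in the mouse helps piRNAs direct DNA methylation to transposons, had 47.0 and 63.2 CPM with BUS and 108 and 129 CPM with BUS+ULA. It rose by a log2 fold change of 1.10 (SE 0.24, adjusted p = 0.0149). Tdrd12, a Tudor protein known for the making of secondary piRNAs, had 45.2 and 57.2 CPM with BUS and 122 and 95.04 CPM with BUS+ULA. It rose by 1.08 on the same scale (SE 0.24, adjusted p = 0.0156). Both had groups that were well apart, though without BUS+ULA replicate 2 neither passed (adjusted p = 0.186 and 0.0620), and without BUS+ULA replicate 1 Tdrd12 did not (0.140).

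The 3 genes that fell were of low to middling abundance. Piwil4 encodes MIWI2, the nuclear PIWI protein of fetal and perinatal germ cells. It had 66 and 61 counts with BUS and 13 and 16 counts with BUS+ULA, or 3.47 and 3.003 against 0.79 and 1.27 CPM, a log2 fold change of -1.67 (SE 0.44, adjusted p = 0.0255 from edgeR). Dnmt3c, a DNA methyltransferase of rodents that marks the promoters of young transposons in male germ cells, had 16.8 and 7.48 CPM with BUS and 5.57 and 4.12 CPM with BUS+ULA. Its log2 fold change was -1.32 (SE 0.43, adjusted p = 0.0479), passing in 8 of 16 alternatives, and without BUS replicate 1 it was -0.64 (adjusted p = 0.218). Adad2, an RNA-binding protein of germ granules in spermatocytes, had 40.4 and 46.3 CPM with BUS and 25.7 and 18.7 CPM with BUS+ULA, a log2 fold change of -0.96 (SE 0.26, adjusted p = 0.0274). Corrected for GC content and length, the value of Adad2 was -0.0038 (adjusted p = 0.995 from edgeR). The median over all genes was 0.22 in that fit, so Adad2 still lay below the median gene. Its transcript had the highest GC content of the listed pathway genes at 63.0%. None of the 3 passed without BUS+ULA replicate 1 (adjusted p = 0.194 for Piwil4, 0.0513 for Dnmt3c and 0.0694 for Adad2) or without BUS+ULA replicate 2 (0.0938, 0.263 and 0.401).

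Mybl1, the A-MYB factor, had 35.1 and 46.2 CPM with BUS and 63.3 and 71.4 CPM with BUS+ULA. The groups did not overlap, and the log2 fold change of 0.73 (SE 0.24, adjusted p = 0.0505) was just short of the threshold, which it passed in 7 of 16 alternatives, while the GC and length correction gave 0.48 (adjusted p = 0.268). The 17 remaining genes ranged from -0.45 for Fkbp6, a cochaperone of piRNA loading, to 0.66 for Stk31, a Tudor protein with a kinase domain. Among those that did not pass, chosen after their values were seen, Tdrd7 gave 0.60 (adjusted p = 0.0991), Rnf17 0.63 (0.0864), the trimmer Pnldc1 -0.39 (0.278) and the 3′ end methyltransferase Henmt1 0.43 (0.231). Tdrkh, the mitochondrial Tudor protein that recruits the trimmer, gave 0.07 (0.843). Of its exon bases 36.7% are shared with the spermatid gene Oaz3 on the opposite strand, which itself rose by 1.12 (adjusted p = 0.0266), so the value of Tdrkh is uncertain.

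Set beside markers of the germ cell stages, the median of the members was near those of the spermatocyte and round spermatid lists. The median log2 fold change was 0.45 for 14 early spermatocyte markers, of which 0 passed, 0.43 for 9 late spermatocyte markers, of which 2 were higher, and 0.56 for 10 round spermatid markers, of which 3 were higher. The members' own median of 0.45 fell among these. All of these values are without the GC and length correction. With it the members' median was 0.80, beside 0.22 over all genes, and the marker lists were not compared under it. Elongating spermatid markers had a median of 1.41, with 8 of 9 higher, and 13 spermatogonia markers of -0.88, with 6 lower. Somatic markers went the other way, as 9 of 11 Sertoli and 6 of 6 Leydig cell markers were lower, with medians of -1.51 and -2.66. Smc1b, a meiotic cohesin subunit and with Sycp2 one of the 2 early spermatocyte markers with the highest mean CPM, had 139 and 176 CPM with BUS and 241 and 223 CPM with BUS+ULA. The summed level of the early spermatocyte markers was 785 and 1115 CPM with BUS and 1434 and 1304 CPM with BUS+ULA. That of the Sertoli cell markers was lower with BUS+ULA, going from 5764 and 3007 to 1786 and 1091 CPM. The part of these shifts in the members' values was not tested.

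Within a library, the ratio of the members to the markers of each stage was also taken, from counts without the GC and length correction. Against the median of the early spermatocyte markers, 6 members lay above both BUS libraries in both BUS+ULA libraries (0.13 for Piwil1 to 0.61 for Tdrd6), Piwil2 (-0.17) and Pld6 (-0.39) lay below, and Tdrd1 and Tdrd9 overlapped. Against the median of the late spermatocyte markers, the mean log2 ratio differed between groups by 0.06 for Piwil1, 0.07 for Ddx4, 0.02 for Tdrd1, 0.10 for Tdrd5, 0.07 for Mov10l1 and -0.24 for Piwil2, each with groups that overlapped. With no overlap, it differed by 0.54 for Tdrd6, 0.16 for Mael, 0.07 for Tdrd9 and -0.46 for Pld6. Against the round spermatid markers 8 members lay below (-0.10 for Mael to -0.71 for Pld6), Piwil1 overlapped at -0.20 and Tdrd6 lay above at 0.29. Against the elongating spermatid markers every member was lower in both BUS+ULA libraries, by -0.61 for Tdrd6 and by -0.996 for Mael to -1.61 for Pld6 among the others, and against the spermatogonia markers every member was higher, by 0.55 for Pld6 to 1.55 for Tdrd6. These ratios were taken for the members alone, so no share over all genes stands beside the counts. The elongating spermatid and spermatogonia lists had median log2 fold changes of 1.41 and -0.88, beside 0.02 over all genes tested. A gene with little change would therefore also be lower against the first list and higher against the second. Several of the marker lists and the members are used in the same cells, so these ratios describe the libraries and are not independent evidence.

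**Figure D4:**
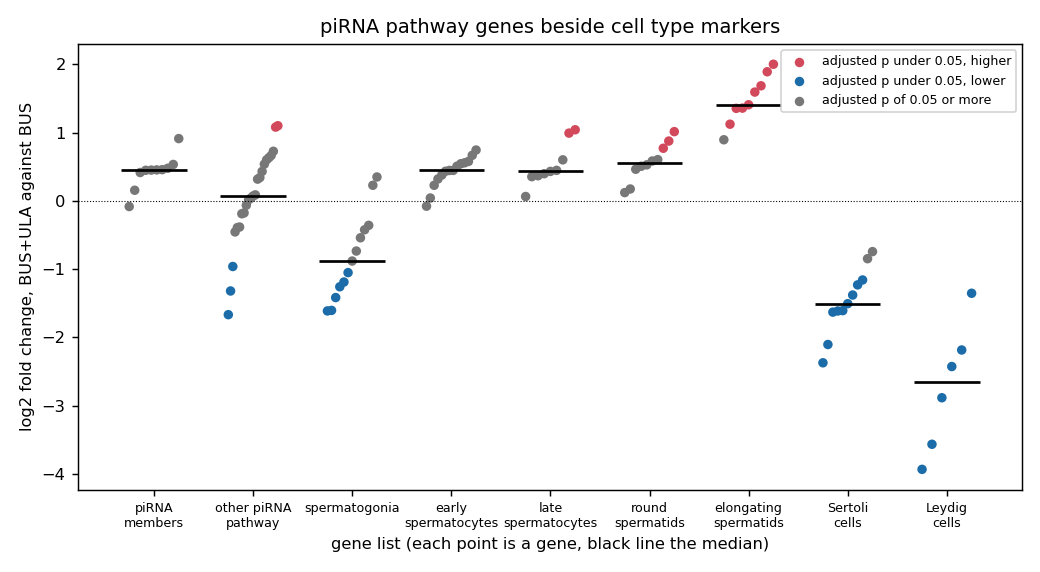
Log2 fold change, BUS+ULA against BUS, of each gene of the members, the other pathway genes and 7 marker lists, with the median as a black line. Values are without the GC and length correction. The members (median 0.45) sit near early and late spermatocyte markers (0.45 and 0.43) and round spermatid markers (0.56). They lie below elongating spermatids (1.41) and above spermatogonia (-0.88), Sertoli cells (-1.51) and Leydig cells (-2.66).

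Another scaling moved all members together. With upper-quartile factors the members' median was 0.72 and the median of all genes 0.31, and with library size alone they were 0.23 and -0.20. The members stayed 0.42 and 0.43 above the median gene, as with TMM (0.43). A scaling factor moves all genes by nearly the same amount, so this distance is nearly fixed across scalings. That distance was not constant over the other alternatives, falling to 0.09 with no filter beyond 1 count and 0.21 without BUS replicate 1, and rising to 0.67 with protein-coding genes alone. The split of calls over all genes moved from 2706 higher and 3512 lower to 4282 and 2364 with upper-quartile factors, to 1877 and 5031 with library size alone and to 3802 and 2406 with the GC and length correction. That correction spread the members out: Tdrd6 gave 1.57, Piwil1 1.08 and Tdrd9 1.01, while Ddx4 and Mael, whose transcripts have the lowest GC content of the members (43.1% and 44.9%), gave 0.38 and 0.30. Under it, the members' median was 0.80 and the median of all genes 0.22, a distance of 0.58, and 3 members passed (Tdrd5, Tdrd6 and Tdrd9). The fitted offsets also held each library's mean level and were used on top of the TMM factors. The rise of all genes, the split of calls and these passes therefore mix scaling with GC content and length. The p-values there also took more degrees of freedom than in the reported fit. Piwil2 had values below 0 with library size alone (-0.06) and without BUS replicate 1 (-0.0036), and the 8 members other than Piwil2 and Pld6 were above 0 under all 16 alternatives.

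**Figure D5:**
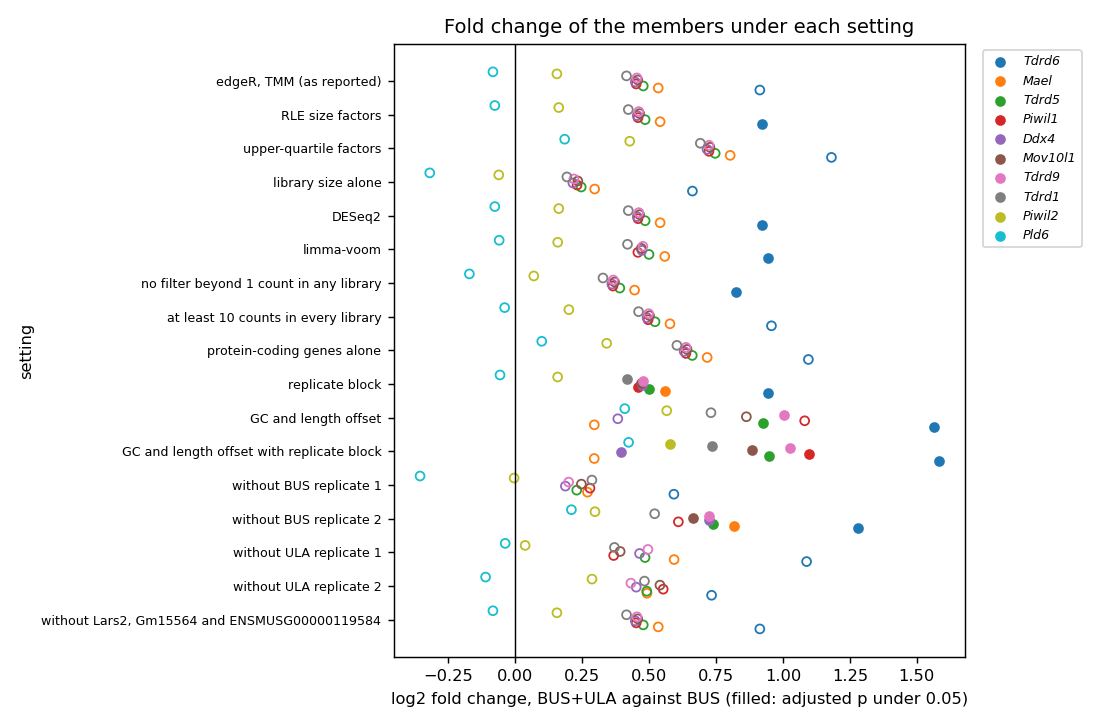
Log2 fold change of each member under the reported fit and 16 alternatives, with filled points where the adjusted p was under 0.05. Tdrd6 is farthest to the right throughout, Pld6 crosses 0, and the other members shift as a group under most settings and spread apart with the GC and length offset.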

How the data were processed

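Counts of 4 testis libraries were analysed. The deposited values are raw counts by Ensembl gene identifier, which the authors left unnormalized. The methods of the study name Fastp, STAR, GRCm38 and FeatureCounts, while the submitters' processing notes name RSEM 1.3.1; which tool made the counts, its strand setting and its treatment of reads that map to several places are not given in the sources used here. GENCODE M21 (GRCm38) names 52081 of the 57010 identifiers, and 4929 are numbered above the highest one there, so the counts were made with a later annotation; coordinates, exon lengths and GC content are those of M21. Columns were matched to libraries by group and number, and the ULA columns carry an added letter A of unstated meaning. The labels count 25 mice in 5 groups and the methods 50, without saying which of them were sequenced. No batch is labelled, so a batch that follows the groups cannot be told apart from them. Libraries of a group differed beyond sampling noise.

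Genes kept by filterByExpr (minimum count 10, minimum total 15) were scaled by TMM and compared with the quasi-likelihood test of edgeR 4.0.16 in R 4.3.3, with Benjamini-Hochberg adjustment over all 23023 genes tested and a threshold of 0.05. The biological coefficient of variation was 0.242. Standard errors come from the F statistic, and 95% intervals from them with 2 residual and 7.18 median prior degrees of freedom. Ratios within a library used log2 of CPM plus 0.5. The members and lists were chosen with earlier results of these data known, from general knowledge of the pathway and of testis cells. All members, every other pathway gene past the threshold, Piwil4 and Mybl1 were named by rule, with the 2 most abundant markers of a list where a result turned on them; the remaining pathway genes named were chosen after their values were seen. The settings tried instead were DESeq2 1.42.0, limma-voom (limma 3.58.1), scaling by RLE, by the upper quartile or by library size, other filters, protein-coding genes alone, a replicate block, smooth offsets for GC content and length (mgcv 1.9.3, 8 basis functions, 22444 genes), leaving out each library, a fold of 1.5 with an unadjusted p, and, chosen after seeing the data, leaving out Lars2, Gm15564 and ENSMUSG00000119584. The fit was tested on simulated data. The smooth offsets also held each library's mean level and were used on top of the TMM factors, so scaling was applied more than once in those fits. The p-values of the fits with these offsets, with no filter and with a library left out followed a normal distribution. They thus took more degrees of freedom than the reported fit.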

Additional observations from a re-analysis of the deposited data

How the results depend on the processing

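The main limits are the 2 libraries per group and the distance between the BUS libraries; leaving out a library leaves a lone one that is assumed to vary like the rest. Beside 0 members higher with edgeR, 1 passed with RLE factors, DESeq2, limma-voom, no filter beyond 1 count, and an unadjusted p with a fold of 1.5, 3 passed with the GC and length offset, and 0 to 6 when each library was left out; 0 members were lower in any of these. The groups share replicate numbers, and replicate 1 deviated from its group mean alike in both (correlation across genes 0.33), but no label gives a shared origin, so the samples were not treated as paired. With the replicate block 8 members passed, and 8 with the block and the GC and length offset. The members' median of 0.45 became 0.72 with upper-quartile factors, 0.23 with library size alone, 0.64 with protein-coding genes alone, 0.80 with the GC and length offset and 0.81 with that and the block, and ranged from 0.24 to 0.69 when a library was left out. With the GC and length offset the median of all genes also rose, to 0.22, with or without the block. These offsets also held each library's mean level and were used on top of the TMM factors, so their results mix scaling with GC content and length. Over all genes, higher calls were 4282 with upper-quartile factors, 1477 with protein-coding genes alone (2239 lower), 5151 with the block (5901 lower), 5789 with the block and the offset, 4464 with the unadjusted p and fold, and 656 to 5556 without a library (714 to 6429 lower). Of the other pathway genes, 5 were higher and 1 lower with upper-quartile factors, 4 and 1 with protein-coding genes alone, 0 lower with the GC and length offset, 6 higher with the unadjusted p and fold, 7 with the block, 8 with the block and the offset, and 0 to 8 higher and 0 to 3 lower without a library. Adad2 turned from -0.96 to 0.00057 with the block and the offset (adjusted p = 0.999 from edgeR), where the median of all genes was 0.22. The causes were not tested. Leaving out the 3 identifiers that gained most counts with ULA kept all of these counts for the members and the other pathway genes.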
